A study of Mus musculus with 8 samples.

Results

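The subject here is 10 genes of the p53 pathway in the embryonic mouse kidney: Trp53 itself, its antagonist Mdm2 and 8 direct target genes, Cdkn1a, Ccng1, Perp, Bax, Bbc3, Phlda3, Sesn2 and Trp53inp1. They were chosen by name, with earlier results of these data known. Every array probe whose RefSeq accession belongs to them was taken, which gave 12 probes of 55681. All 10 genes were found, and 11 of the 12 probes were bright enough to be tested among 18145 probes of 13981 genes. Each sample was a pair of whole C57BL/6 kidneys at embryonic day 16.5. The 4 WT pairs were wildtype controls, and the 4 DOT1-null (KO) pairs lacked Dot1 (read here as the gene Dot1l) in their nephron progenitor cells, the cells that express Six2. The promoter that drove the deletion is not named in the labels, and a whole kidney also holds many cells outside the Six2 lineage, which the labels do not name as targeted. In such bulk tissue, fewer cells of a type and less RNA per cell cannot be told apart. Each sample was labelled red and hybridised with green-labelled RNA of the WT1 kidneys, so each value is a log2 ratio of the sample over that reference.

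p53, the product of Trp53, is a transcription factor that damaged DNA, ribosomal stress and other insults stabilise. MDM2, a ubiquitin ligase and itself a p53 target, marks p53 for degradation and keeps it low in unstressed cells. Stabilised p53 switches on genes that stop the cell cycle, above all Cdkn1a, genes of apoptosis such as Bax, Bbc3 and Perp, and genes that damp growth signalling or oxidative stress, such as Sesn2. In the developing kidney, loss of Mdm2 from nephron progenitors is known to deplete that pool. The transcript of Trp53 says little about the amount of p53 protein, which is set mainly by its stability, so the levels of the target genes were the main readout. Dot1l encodes the histone H3 lysine 79 methyltransferase.

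p53 binds DNA through decamers of the general form 5′-purines, a C-A/T-A/T-G core and pyrimidines-3′, usually in adjoining pairs. This p53 decamer was searched on both strands in the RefSeq promoter windows of build GRCm38.p6, from 250 bases before to 50 after each annotated start. The decamer was present in 8.4% of 32851 windows, and 0.36% held at least 2. Of the 10 genes, 8 had windows, 11 in all, and 5 of these windows held the decamer. The window of the upstream Cdkn1a start held 2 decamers, at positions -73 and -51 from the start and 12 bases apart, while the downstream start, 2790 bases further on, had none. The decamer at -51 is directly followed by tgacatgttc, which misses the searched form at its first base only. The search allowed no mismatch, so this adjoining stretch was not counted and is not in capitals. Mdm2 (-186), Bax (-201), Ccng1 (-185) and Trp53 (-75) had 1 each, and the windows of Bbc3, Phlda3 and Sesn2 had none. The 250 bases before the start are shown for both Cdkn1a starts, since Cdkn1a is a member that rose, and for Mdm2, Bax and Ccng1, which hold the decamer and did not pass the test; capitals mark the decamers. They lie at chr17:29090729-29090978 (+) and chr17:29093519-29093768 (+) for Cdkn1a, chr10:117710759-117711008 (-) for Mdm2, chr7:45466899-45467148 (-) for Bax and chr11:40755287-40755536 (-) for Ccng1.
Cdkn1a, upstream start: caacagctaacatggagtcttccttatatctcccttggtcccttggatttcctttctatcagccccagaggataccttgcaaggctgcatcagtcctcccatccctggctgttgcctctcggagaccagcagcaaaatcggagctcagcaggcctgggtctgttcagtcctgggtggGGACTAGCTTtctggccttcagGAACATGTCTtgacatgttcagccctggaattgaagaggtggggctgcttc
Cdkn1a, downstream start: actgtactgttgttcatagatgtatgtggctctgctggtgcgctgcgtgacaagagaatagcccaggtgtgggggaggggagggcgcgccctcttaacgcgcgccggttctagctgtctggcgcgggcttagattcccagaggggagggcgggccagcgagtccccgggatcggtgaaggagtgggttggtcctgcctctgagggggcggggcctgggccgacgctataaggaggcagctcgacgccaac
Mdm2: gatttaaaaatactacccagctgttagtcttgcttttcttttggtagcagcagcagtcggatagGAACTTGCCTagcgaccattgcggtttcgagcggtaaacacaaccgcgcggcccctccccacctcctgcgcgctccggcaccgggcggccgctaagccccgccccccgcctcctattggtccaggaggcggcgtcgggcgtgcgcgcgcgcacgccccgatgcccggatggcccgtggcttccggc
Bax: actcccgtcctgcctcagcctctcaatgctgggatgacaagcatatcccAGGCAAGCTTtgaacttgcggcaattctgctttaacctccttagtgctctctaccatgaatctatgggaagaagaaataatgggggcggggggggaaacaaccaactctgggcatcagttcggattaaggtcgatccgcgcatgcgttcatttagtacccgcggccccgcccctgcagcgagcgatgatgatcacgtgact
Ccng1: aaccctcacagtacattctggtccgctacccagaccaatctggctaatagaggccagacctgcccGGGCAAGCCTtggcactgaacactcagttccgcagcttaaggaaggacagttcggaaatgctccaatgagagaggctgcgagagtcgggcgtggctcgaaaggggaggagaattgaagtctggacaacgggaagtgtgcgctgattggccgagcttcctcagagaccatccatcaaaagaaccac
A match describes letters in this window only, and these arrays did not measure binding of p53.

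Some features of the arrays touch every value below. On 6 arrays the negative-control spots had a median red signal of 58 to 61 scanner units, but this background reached 1361 units for WT1 and 478.2 units for KO1, so results are also given without these arrays. The WT1 array compared WT1 RNA with itself. The slide's row 1 held the 4 WT arrays and its row 2 the 4 KO arrays, and the effects of row and group cannot be told apart. By the Y-linked gene Ddx3y, all 4 KO embryos and 1 WT embryo (WT2) were male and 3 WT embryos were female. The Dot1l probe differed by 0.03 ± 0.08 (SE, n = 4 per group) between KO and WT, and where it lies relative to the deleted part was not analysed here, so it does not check the labels. All listed markers of nephron progenitors, podocytes, proximal tubule and collecting duct were well above background on at least 4 of the 8 arrays, whereas of 4 adrenal and sympathetic markers only Th was, and Cyp11a1, Star and Dbh were too dim to be tested.

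The comparison asks whether expression of p53 and its targets changed when Dot1l was removed from nephron progenitors. Of the 10 genes, 2 rose in KO and none fell: Cdkn1a, the cell cycle inhibitor p21, by 0.76 ± 0.13 on the log2 scale (SE, n = 4 per group; 1.69-fold; limma adjusted p = 0.0118), and Perp, a membrane protein of desmosomes that also acts in apoptosis, by 0.69 ± 0.10 (1.61-fold; adjusted p = 0.00732). Across the array 1.82% of the 13981 genes, each taken at its brightest probe, were called at an adjusted p of 0.05, and 1.33% were called higher in KO. Over all 18145 probes the shares were 1.53% and 1.11%, and the 278 called probes became 550 once replicate numbers entered the fit as a block, with the same 2 members among them. The other 8 members, which include Trp53, Mdm2 and the most widely used target genes beside p21, differed by between -0.12 and 0.13 and did not pass. The groups did not overlap for Cdkn1a and Perp and overlapped for the other 8, against 9.28% of all genes and 8.56% of all probes without overlap. The median difference of the 10 genes was 0.08, with 6 above and 4 below 0, and that of all genes was 0.03, with 59.3% above 0.

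**Figure D1:**
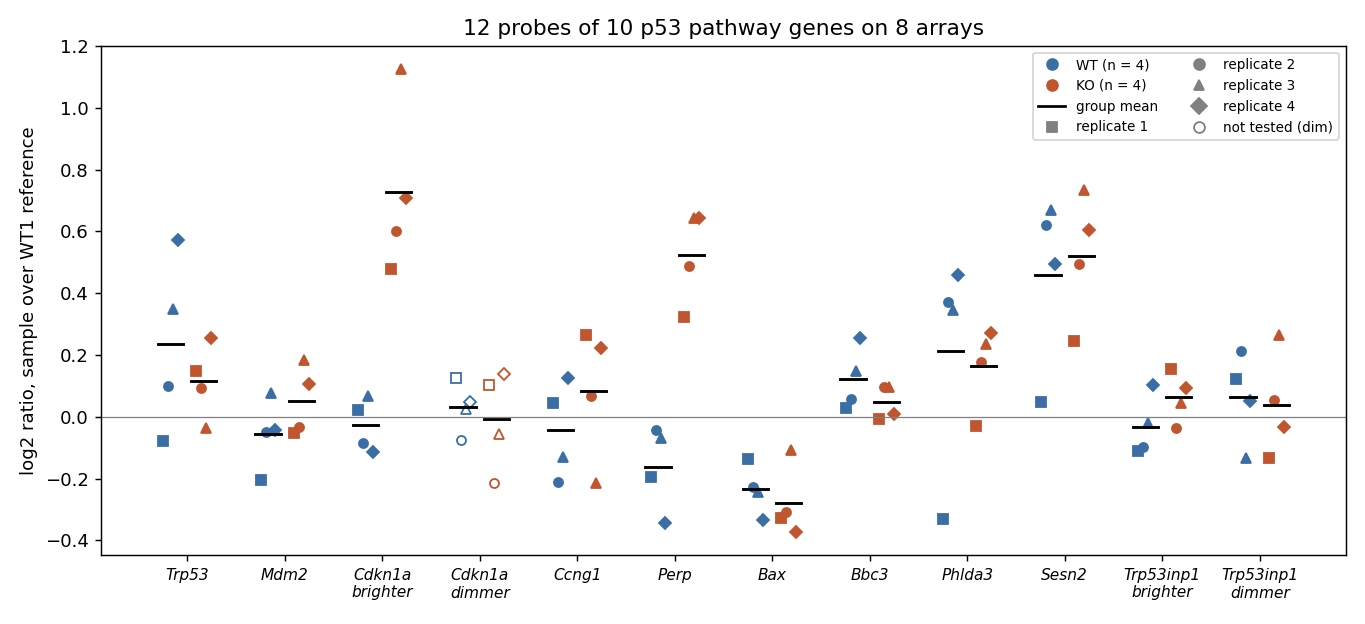
Log2 ratio of each sample over the WT1 reference (vertical axis) for the 12 probes; blue symbols are WT and orange symbols KO arrays, with a symbol shape for each replicate number and a black line for the mean of 4 arrays; open symbols mark the probe too dim to be tested. The KO arrays lie above the WT arrays at the brighter Cdkn1a probe, from 0.48 to 1.13, and at Perp, from 0.32 to 0.64, and mix with them at the other probes.

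Cdkn1a encodes p21, which binds cyclin-dependent kinases and halts the cell cycle, and is the classical transcriptional readout of p53. Its brighter probe read 0.02, -0.09, 0.07 and -0.11 (log2 ratio) on the arrays WT1 to WT4, against 0.48, 0.60, 1.13 and 0.71 on KO1 to KO4. The lowest KO array thus lay well above the highest WT array, and KO3 stood highest. The array carries 10 copies of this probe, which show the error between spots of 1 array but not the technical error between arrays. On each array 7 to 10 copies were usable, and their SD ranged from 0.04 on KO2 and KO3 to 0.12 on WT1. The SD between the 4 KO arrays was 0.28 and between the 4 WT arrays 0.09. These hold the technical error within and between arrays as well as the differences between kidneys, which cannot be told apart here. The unnormalized red signal was 1344 to 1867 units on WT2 to WT4 and 2184 to 2892 units on KO2 to KO4, while the green signal of the shared reference was 635 to 700 and 572 to 598 units. In the raw signals of these 6 arrays, KO was thus higher in red and lower in green, without overlap in either colour. The lower green signal was not particular to Cdkn1a, since green is the same reference RNA on every array. For Mdm2, which did not pass, green was 1515 to 1908.5 units on WT2 to WT4 and 1205 to 1354 units on KO2 to KO4. Sesn2, Bbc3 and Phlda3 also lacked overlap in green, whereas Bax and Ccng1 overlapped. Without KO3 the difference was 0.62 (adjusted p = 0.0104), and without WT1 and KO1 it was 0.86 (adjusted p = 0.027). The call was close to the threshold without WT4 (adjusted p = 0.0421) and without KO4 (adjusted p = 0.0496). It was lost with scale normalization between arrays (adjusted p = 0.129).

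**Figure D2:**
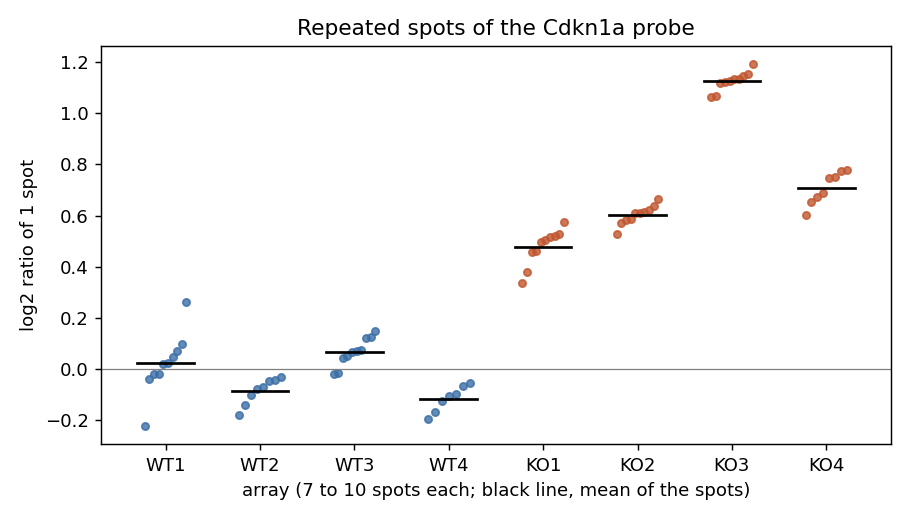
Log2 ratios of the single spots of the brighter Cdkn1a probe (vertical axis) on each of the 8 arrays (horizontal axis), WT in blue and KO in orange, sorted within an array, with the mean as a black line. The lowest KO spot, 0.34 on KO1, lies above the highest WT spot, 0.26 on WT1.

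The other Cdkn1a probe, matched to another RefSeq transcript of the gene, was well above background on 2 arrays only, WT1 and KO1, and was not tested. Its red signal on the other 6 arrays was 58 to 72 units, at the level of the negative controls. Its log2 ratios were 0.12, -0.08, 0.02 and 0.05 in WT and 0.10, -0.21, -0.06 and 0.14 in KO, with mixed groups. The difference between the probes changed by 0.79 from WT to KO (exact permutation test, two-sided, p = 0.029, which is the smallest value that 70 splits can give). A probe at background cannot show a change, so the values at this probe do not bear on the rise at the brighter one.

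Perp encodes a tetraspan membrane protein that p53 and its relative p63 induce and that desmosomes of epithelia need. Its single probe gave -0.20, -0.04, -0.07 and -0.34 in WT1 to WT4 and 0.32, 0.49, 0.64 and 0.64 in KO1 to KO4. Every KO array lay above every WT array, by at least the step from -0.04 to 0.32. The unnormalized red signal was 1672 to 1987 units on WT2 to WT4 and 1759 to 3091 units on KO2 to KO4, and the green signal 785.5 to 888 and 605.5 to 678 units. The raw red signals of the groups therefore overlapped, while the raw green signals of the reference did not. Green signals also lacked overlap for members that did not pass, such as Mdm2, so this is not particular to Perp. Without WT1 and KO1 the difference was 0.74 (adjusted p = 0.018). With the red channel alone and without these arrays, an alternative chosen after seeing the data, it was 0.56 for Perp (adjusted p = 0.0593) and 0.82 for Cdkn1a (adjusted p = 0.039).

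Cdkn1a ranked 110 and Perp 145 by the size of the difference among the 18145 probes. Both calls were lost with the scanner software's own ratios, where the differences were 0.78 (adjusted p = 0.058) and 0.64 (adjusted p = 0.0623). With sex as a term, which leaves WT2 as the sole male control, they were 0.81 (adjusted p = 0.202) and 0.57 (adjusted p = 0.252), with WT2 itself at -0.09 and -0.04.

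Trp53 and Mdm2, the core of the pathway, did not pass. The Trp53 probe, with 2 copies on the array, read -0.08, 0.10, 0.35 and 0.57 (log2 ratio) on WT1 to WT4, against 0.15, 0.09, -0.04 and 0.25 on KO1 to KO4. The WT arrays spread over the whole range of the KO arrays and beyond it. The difference was -0.12 ± 0.13 (SE; 95% interval -0.40 to 0.16; adjusted p = 0.758), and -0.24 without WT1 and KO1, where it did not pass either. Mdm2, which answers p53 through a promoter inside the gene, gave -0.20, -0.05, 0.08 and -0.04 in WT and -0.05, -0.03, 0.18 and 0.10 in KO. KO3 and KO4 were the highest of the 8 and WT1 the lowest, with the other 5 between. The difference was 0.10 ± 0.09 (95% interval -0.10 to 0.31; adjusted p = 0.701).

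Among the other genes of the cell cycle and feedback arm, Ccng1, which encodes cyclin G1 and helps MDM2 to restrain p53, gave 0.04, -0.21, -0.13 and 0.13 in WT and 0.26, 0.07, -0.21 and 0.22 in KO. KO3 and WT2, both at -0.21, were the lowest arrays for Ccng1, whereas KO3 was the highest for Cdkn1a. The difference was 0.13 ± 0.12 (95% interval -0.13 to 0.38; adjusted p = 0.717). Trp53inp1, a stress-induced nuclear protein that promotes p53 activity and autophagy, was measured by 2 probes. The brighter gave -0.11, -0.10, -0.02 and 0.10 in WT and 0.15, -0.04, 0.04 and 0.09 in KO, a difference of 0.10 ± 0.09 (adjusted p = 0.707). The dimmer gave -0.02 ± 0.11 (adjusted p = 0.956). The probes did not differ in their change beyond the spread between samples (0.12, exact permutation test, two-sided, p = 0.429).

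Bax, Bbc3 and Phlda3 act in apoptosis or against survival signalling, and none of them passed. Bax, the pore-forming effector, gave -0.14, -0.23, -0.24 and -0.33 in WT and -0.33, -0.31, -0.11 and -0.37 in KO. All 8 values were below 0, that of the WT1 array included, and the groups mixed, with KO3 highest and KO4 lowest. The difference was -0.04 ± 0.09 (95% interval -0.24 to 0.15; adjusted p = 0.89). Bbc3, which encodes the BH3-only activator PUMA, gave 0.03, 0.06, 0.15 and 0.26 in WT and -0.01, 0.10, 0.10 and 0.01 in KO. WT3 and WT4 were the highest arrays, and the difference was -0.07 ± 0.08 (95% interval -0.26 to 0.11; adjusted p = 0.771). Phlda3, a pleckstrin-homology protein that blocks AKT signalling, gave -0.33, 0.37, 0.35 and 0.46 in WT and -0.03, 0.18, 0.24 and 0.27 in KO. The WT1 array stood far below the other WT arrays and KO1 below the other KO arrays. The difference of -0.05 ± 0.15 (adjusted p = 0.939) was -0.23 without WT1 and -0.16 without WT1 and KO1, and did not pass in either case.

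Sesn2, a stress sensor that holds back the growth kinase complex mTORC1, gave 0.05, 0.62, 0.67 and 0.49 in WT and 0.25, 0.49, 0.74 and 0.60 in KO. Apart from WT1 and KO1, every array of both groups lay between 0.49 and 0.74, above the WT1 reference. The difference was 0.06 ± 0.14 (95% interval -0.25 to 0.37; adjusted p = 0.911). For the tested probes of the 8 members that did not pass, the highest upper bound of the 95% intervals was 0.38 (Ccng1), below the lower bounds of 0.48 for Cdkn1a and 0.47 for Perp.

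**Figure D3:**
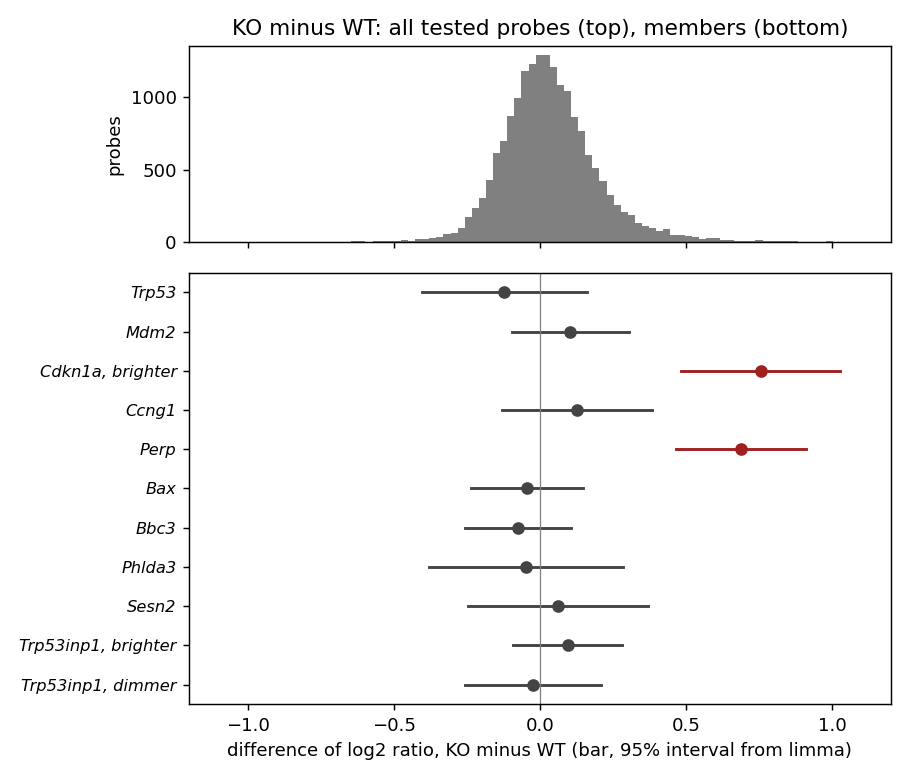
Upper panel, histogram of the difference KO minus WT (horizontal axis, log2) over the tested probes, 19 of which lie beyond the plotted limits of 1.2; lower panel, the 11 tested member probes with 95% intervals from limma, red where the adjusted p was below 0.05. Cdkn1a and Perp lie in the upper tail, with intervals starting at 0.48 and 0.47, and the intervals of the other 9 probes all include 0.

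The members did not vary together as a block. Over the 45 pairs of genes, correlations of the log2 ratios after removing the group means had a median of 0.27 and ran from -0.81 (Bax and Trp53) to 0.91 (Mdm2 and Sesn2). These rest on 8 arrays that share a reference RNA and a slide, and are given as a description. Without WT1 and KO1 the pair of Mdm2 and Sesn2 stayed at 0.87, while Phlda3 and Sesn2 went from 0.89 to 0.10. Cdkn1a and Perp had a correlation of 0.94 over all 8 arrays, and of 0.64 once the group means were removed. Among the genes whose 8 values were most like those of Cdkn1a were Cavin1, Adh1, Gmfg and Pdk4, with Pearson correlations of 0.98 to 0.99, and for Perp they were Anxa2, Guca2b, C1qc, Cyp2s1 and Manba, also at 0.98 to 0.99. Likeness of this degree was not rare: 302 of 13958 genes correlated with Cdkn1a, and 239 with Perp, at more than 0.9. Likeness was taken with the group means left in, so a difference in the direction of Cdkn1a or Perp follows from the choice of these neighbours. Of them Adh1, an alcohol dehydrogenase gene (0.84), Pdk4, a brake on pyruvate oxidation (0.49), Guca2b, the uroguanylin gene (1.44), Cyp2s1 (0.51) and Manba (0.42) passed. Cavin1 (0.28), Gmfg (0.27), Anxa2 (0.28) and C1qc (0.37) did not pass.

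A wider list of 39 other p53 target genes was examined in the same way. Of 36 tested, 1 rose and none fell, with a median of 0.02 and 20 above 0, beside the 1.82% of all genes that were called. The gene that rose was Ddit4, an inhibitor of mTORC1 that hypoxia and glucocorticoids also induce, with -0.19, 0.00, -0.05 and 0.07 in WT and 0.30, 0.35, 0.38 and 0.49 in KO. The groups lay apart, by 0.42 ± 0.09 (SE; adjusted p = 0.031). The call held without KO1 (adjusted p = 0.0397) and was lost when any other single array was left out (adjusted p of up to 0.138). It was lost in 15 of 23 alternatives. Among these were the fit without WT1 and KO1, the software's ratios, scale normalization and sex as a term. Thbs1, the thrombospondin gene, differed by 0.52 ± 0.13 (adjusted p = 0.0725; 0.0113 with the replicate number as a block). All remaining genes of the list failed the test and lay on both sides of 0. They ran from Pidd1 (-0.29), which encodes a death domain protein, Sulf2 (-0.27) and Fdxr (-0.23), the ferredoxin reductase gene, through Gadd45a (-0.04), Ddb2 (0.00) and Zmat3 (0.08) to Fas, the death receptor gene (0.15), Pmaip1, which encodes NOXA (0.17), and Ephx1 (0.31). Among them the groups did not overlap for Fdxr and Sesn1 (0.17).

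Regulators of p53 were next. Of 20 listed, 16 were tested and none passed, with a median of 0.00 and 8 on either side of 0. The smallest p values were those of the checkpoint kinase gene Chek2 (-0.23 ± 0.10, adjusted p = 0.364) and the p53 kinase gene Hipk2 (-0.19 ± 0.12, adjusted p = 0.53). Mdm4, the partner of Mdm2 (0.04), Usp7, the deubiquitinase of MDM2 and p53 (0.14), Atm (-0.11) and the p53 relative Trp63 (0.13), which also drives Perp, did not pass. Cdkn2a, Chek1, Ep300 and Trp73 were too dim to be tested.

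Of 12 tested genes of the BCL2 family, to which Bax and Bbc3 belong, none passed (median 0.04). Bmf, a BH3-only gene, differed by 0.26 ± 0.11 (adjusted p = 0.305), and the survival gene Bcl2 by -0.28 ± 0.12 (adjusted p = 0.342). Of 5 other tested inhibitors of cyclin-dependent kinases none passed, with a median of 0.15. Cdkn2b differed by 0.26 ± 0.10 (adjusted p = 0.251), Cdkn2d by 0.26 ± 0.11 (adjusted p = 0.302), Cdkn1c by 0.15 and Cdkn1b by 0.08. Of 11 tested paralogs of the members none passed, with 10 above 0 and a median of 0.13. Phlda1, a relative of Phlda3, had the largest difference at 0.42 ± 0.11 (adjusted p = 0.0881; 0.0401 with the replicate number as a block), and Sesn1 differed by 0.17 ± 0.08 (adjusted p = 0.376).

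p21 lowers cell cycle genes by way of the DREAM repressor complex, so 20 such genes were listed. Of 19 tested, none passed. All 19 had differences below 0, from -0.22 to -0.03 with a median of -0.14, whereas 40.7% of all genes were below 0. The 19 genes were read on the same arrays and cannot be counted as independent, so the count is a description only. The smallest p values were those of E2f1, a driver of S phase (-0.21 ± 0.10, adjusted p = 0.41), and Cenpa, the centromeric histone gene (-0.20 ± 0.10, adjusted p = 0.427). Cdk1 differed by -0.22, Top2a by -0.20 and Mki67 by -0.03. The mean of the list was -0.17, 0.08, -0.04 and 0.16 in WT1 to WT4 and -0.06, -0.07, -0.28 and -0.07 in KO1 to KO4. KO3 was the lowest, and WT1 lay among the KO arrays. KO3 was also the array highest in Cdkn1a and in the mean of the proximal tubule markers (0.52). Whether p21 lowered the listed genes here was not tested. Without WT1 and KO1 the median was -0.25, with all 19 below 0. Without WT4 it was -0.07, with 17 of 19 below 0, and without KO3 -0.08, with 14 below 0. With the red channel alone the list median turned to 0.23, with 4 below 0, where the median of all probes was 0.18. With the red channel alone and without WT1 and KO1 it was -0.23, with 18 below 0.

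Since Perp belongs to desmosomes, 14 genes of desmosomes and simple epithelia were compared. Of these 1 rose and none fell, beside 1.82% of all genes called, with a median of 0.09 and 12 above 0, against 59.3% of all genes. These genes, too, cannot be counted as independent. Krt19, a keratin of collecting duct and other simple epithelia, rose by 0.54 ± 0.12 (adjusted p = 0.0439), with 0.00, -0.02, 0.04 and -0.06 in WT and 0.20, 0.43, 0.78 and 0.72 in KO. All KO arrays lay above the WT arrays, but the call held only without KO1 among the 8 settings that leave out 1 array (adjusted p of 0.0088, against up to 0.171). The call of Krt19 held without WT1 and KO1. It was lost in 15 of 23 alternatives, among them the software's ratios, scale normalization and sex as a term. Of the other keratins listed, Krt18 differed by 0.30, Krt8 by 0.29 and Krt7 by 0.01, and none passed. The desmosome genes proper differed less than Krt19: Dsp by 0.09, Pkp2 by 0.05, Pkp3 by 0.04, Jup by -0.13, Dsg2 by 0.24 and Dsc2 by 0.21. The groups did not overlap for Dsc2 either, beside 9.28% of all genes without overlap.

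**Figure D4:**
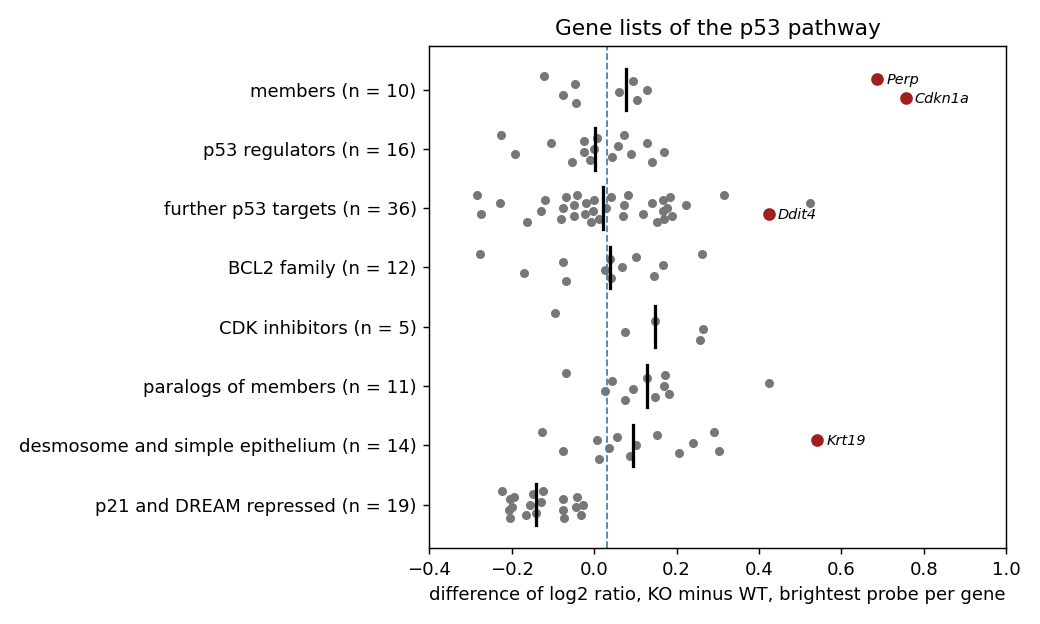
Difference KO minus WT (horizontal axis, log2) of each tested gene at its brightest probe, by list; red points passed an adjusted p of 0.05, black bars are list medians and the dashed line is the median of all 13981 genes, 0.03. The points that passed are Cdkn1a and Perp among the members, Ddit4 among further targets and Krt19 among epithelial genes. All 19 tested genes of the p21 and DREAM list lie left of 0 and none passed. Whether p21 lowered them here was not tested.

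Markers of some other cell types also differed between the groups, again beside the 1.33% of all genes that were called higher and the 0.494% called lower. Of 6 stromal markers 4 rose, and the mean of that list was -0.14 to -0.04 on the WT arrays and 0.29 to 0.55 on the KO arrays. The stromal count was 5 with the replicate block, 2 without WT1, 1 without WT4, 1 without KO4 and 1 with the software's ratios. It was 0 with scale normalization and with sex as a term. Of 5 macrophage markers 2 rose, with a list mean of -0.23 to 0.02 in WT and 0.20 to 0.39 in KO. The macrophage count was 3 with the replicate block and without WT2, 1 without KO2 and with the software's ratios, and 0 with scale normalization and with sex as a term. Of 5 nephron progenitor markers 1 fell, Cited1 (-2.72), and of 5 markers of committing nephrons 2 fell, Fgf8 (-0.73) and Lhx1 (-0.86). Fgf8 did not pass with sex as a term, and Lhx1 did not pass without KO4 or with scale normalization. Neither Fgf8 nor Lhx1 passed with median centring or the red channel alone. No marker of 6 for proximal tubule passed (list mean -0.89 to -0.03 in WT, -0.40 to 0.52 in KO, with KO3 highest), and none of 7 for ureteric bud and collecting duct (-0.23 to -0.03 in WT, -0.22 to 0.11 in KO), of 5 tested for urothelium (-0.76 to 0.03 in WT, -0.70 to -0.01 in KO) or of 5 for podocytes (median difference -0.01). Of 4 loop and distal tubule markers none passed, although the groups did not overlap for Umod (0.75) and Slc12a3 (-0.88), which both passed with the replicate block. Of 3 tested erythroid markers none passed and all 3 passed with the replicate block (median difference 0.40), and of 4 endothelial markers (median 0.01) none passed and 1, Cdh5, passed with the block. The part of any of these cell types in the values of Cdkn1a, Perp, Ddit4 or Krt19 was not tested.

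**Figure D5:**
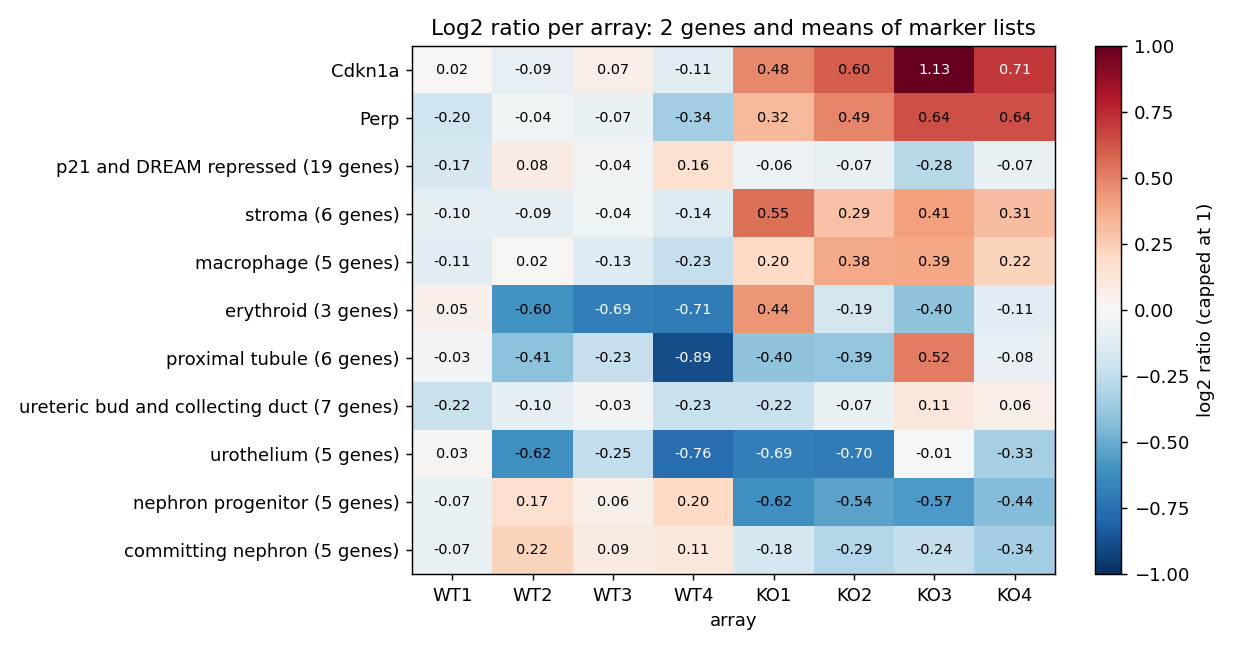
Log2 ratio over the WT1 reference on the 8 arrays (columns) for Cdkn1a and Perp and for the means of 9 gene lists (rows, with the number of genes tested); red is above and blue below 0. Cdkn1a, Perp, stroma and macrophage lists are higher on all 4 KO arrays than on any WT array, and KO3 is the highest KO array for Cdkn1a, Perp, the macrophage list and the proximal tubule list.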

How the data were processed

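The members and lists were chosen with earlier results of these data known. The authors deposited scanner files written by version 10.7.3.1 of Agilent's Feature Extraction software, which the headers and the submitters' processing notes both name. The median red and green signals are linear intensity values without normalization, per the file headers. The deposited log ratios are log10 of dye-normalized red over green, per the file headers, and the deposited series table holds the same log10 ratios within 0.497%, with column medians of 0. Other deposited columns are flags of 0 or 1, set per the file headers by the software.

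With limma 3.58.1 in R 4.3.3, signals were corrected with normexp (offset 50) and loess-normalized within arrays, control spots at weight 0. Spot readings marked as outliers (0.372%) were left out, and copies of a probe were averaged. Probes were named by accession (27509 of 55681) through RefSeq, assembly GRCm38.p6, used for names and promoters only, since the headers name build mm9. Probes well above background in red on at least 4 of 8 arrays were tested with lmFit and eBayes, with Benjamini-Hochberg adjustment over 18145 probes. A gene counts by its brightest probe. The test was also run on simulated data with independent noise for each probe and array. Those data held no errors shared within an array, so the run cannot show how the test behaves under them. SE is limma's moderated standard error. The series' design text calls the samples biological replicates.

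Named were all member probes, the genes of each list that passed or else the 2 with the smallest p, and the 5 genes most like each called member, of which 1 is not reported here. Other list genes were named after their values were seen. Alternatives covered left-out arrays, the replicate number as a block, other ratios, normalizations, filters and features, sex and array weights. Replicate numbers match slide columns. Deviations from the group means had r of 0.14, 0.37, 0.23 and 0.31 between same-numbered WT and KO arrays (numbers 1 to 4). Between differently numbered arrays r ran from -0.55 (WT4 and KO3) to 0.36 (WT4 and KO1), so a pairing by number is not established. The main fit had no term for the number, which entered only as the replicate block. Array number limits the precision.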

Additional observations from a re-analysis of the deposited data

Results flagged for a closer look

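In a group of 4 arrays, a value was marked when its gap to the nearest other array exceeded Dixon's 95% critical share of the group's range. Of 64 groups of 32 probes of genes named here, 2 were marked, and chance marks about 1 in 20. Phlda3 was at -0.33 on WT1 against 0.35 to 0.46 on the other WT arrays. Phlda1, its paralog, was at -0.27 on the same array against 0.14 to 0.17. The WT1 array compared WT1 RNA with itself, so a departure from 0 on it is not a difference between samples.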

How the results depend on the processing

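Over all probes, 278 were called (202 higher and 76 lower in KO). Leaving out 1 array gave 79 (without KO4) to 323 (without KO1), with 126 without WT4, 140 without KO2, 153 without WT2, 155 without WT1 and 172 without KO3. The replicate block gave 550 and array weights 433. The software's ratios and the series table gave 103 each (60 higher and 43 lower), the red channel alone without WT1 and KO1 141, scale normalization 45, sex as a term 13, the red channel alone 1 and median centring 0, with 203 probes at an unadjusted p under 0.05 for the last. Of the members, 2 were called in every setting that left out 1 array and with the replicate block, 1 with scale normalization (Perp) and 1 with the red channel alone without WT1 and KO1 (Cdkn1a). With the software's ratios, the series table, median centring, the red channel alone and sex as a term 0 were called. In all 23 alternatives Cdkn1a was higher in KO, by 0.62 to 0.96, and Perp by 0.56 to 0.88, and no other member passed. Among the pathway lists the replicate block changed the calls of Thbs1 and Phlda1, and among the cell type markers it added Foxd1, Csf1r, Cdh5, Umod, Slc12a3, Alas2, Hba-a1 and Hbb-bt. The median of all probes moved from 0.02 to 0.18 with the red channel alone. The cause of these changes was not tested.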
